A study of Mus musculus with 11 samples.

Results

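A set of 10 genes of mast cells was followed in the colon of 2-week-old mice. They are the chymase genes Mcpt1, Mcpt2, Mcpt4 and Cma1, the carboxypeptidase gene Cpa3, the tryptase genes Tpsb2 and Tpsab1, 2 subunits of the high-affinity IgE receptor, Fcer1a and Ms4a2, and the histidine decarboxylase gene Hdc. They were chosen by gene symbol, as 10 of the 35683 genes in the table, and all 10 were found there. Each of the 11 libraries held the mRNA of the full colon wall of 1 mouse. Of these mice, 6 were Tnfr1-/-, labelled as lacking the gene for TNFR1, the receptor through which the cytokine TNF signals in most cells, and 5 were wild type. The labels state no treatment, strain, sex, litter or batch, and they do not say how the mutation was made. Values are TPM divided by a size factor of the library, called abundance here; TPM is corrected for transcript length, so levels of different genes can be compared.

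Mast cells are granulated cells of connective tissue and mucosa that carry IgE on a surface receptor and release histamine and proteases when antigen cross-links it. In mice, connective-tissue mast cells store the chymases encoded by Mcpt4 and Cma1 together with tryptases and carboxypeptidase A3. Mucosal mast cells, which lie in and under the epithelium, are marked by the chymases Mcpt1 and Mcpt2. In RNA from a whole wall, fewer mast cells and less RNA per mast cell cannot be told apart.

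The sequence upstream of a gene shows how alike 2 members are outside their coding parts. RefSeq (GRCm38.p6) gave the 250 bases before the start of 7 members, Mcpt1, Mcpt4, Cma1, Cpa3, Fcer1a, Ms4a2 and Hdc. Those of Mcpt1 (chr14:56017714-56017963, plus strand), the mucosal chymase with the highest level, and of Mcpt4 (chr14:56062311-56062560, minus strand), its relative of connective-tissue mast cells, are shown because they are the most alike pair. Those of Cma1 (chr14:55944676-55944925, minus strand) and Cpa3 (chr3:20242182-20242431, minus strand) are shown because the RNA of both varied together with that of Mcpt4 from mouse to mouse. All are written 5′ to 3′ along the gene's strand, and capitals mark GATAA, the core that GATA factors bind, and TATAAA, the TATA box core, on either strand (TTATC and TTTATA on the other).
Mcpt1: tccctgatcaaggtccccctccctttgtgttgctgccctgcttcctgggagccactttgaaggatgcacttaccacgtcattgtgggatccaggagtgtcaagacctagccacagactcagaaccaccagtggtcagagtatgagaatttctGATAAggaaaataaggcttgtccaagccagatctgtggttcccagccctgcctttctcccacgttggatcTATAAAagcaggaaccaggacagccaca
Mcpt4: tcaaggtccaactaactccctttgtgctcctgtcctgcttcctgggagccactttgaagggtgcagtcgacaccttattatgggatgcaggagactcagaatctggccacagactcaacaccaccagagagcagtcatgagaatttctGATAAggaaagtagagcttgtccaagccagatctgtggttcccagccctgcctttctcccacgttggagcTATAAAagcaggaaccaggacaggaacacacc
Cma1: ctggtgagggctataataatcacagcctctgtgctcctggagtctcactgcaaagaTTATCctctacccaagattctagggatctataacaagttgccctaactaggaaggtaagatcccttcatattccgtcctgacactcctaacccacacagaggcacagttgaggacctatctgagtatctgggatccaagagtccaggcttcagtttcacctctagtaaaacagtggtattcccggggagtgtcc
Cpa3: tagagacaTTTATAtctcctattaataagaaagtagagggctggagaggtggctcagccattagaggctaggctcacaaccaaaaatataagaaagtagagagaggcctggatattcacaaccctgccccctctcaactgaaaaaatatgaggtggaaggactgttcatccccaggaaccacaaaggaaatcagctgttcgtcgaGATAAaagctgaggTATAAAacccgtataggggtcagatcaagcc

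The windows of Mcpt1 and Mcpt4 were identical at 209 of 242 aligned bases (86.4%), while the 20 other pairs of the 7 members reached 55.1% to 67.5% of aligned bases. Mcpt1 had GATAA 98 bases and TATAAA 28 bases before its start, and Mcpt4 had them at 102 and 32 bases. Cpa3 had GATAA at 45 bases and TATAAA at 31 bases, with another TATAAA, on the other strand, at 242 bases. Cma1 had GATAA on the other strand at 194 bases and no TATAAA in this window. GATAA was present in 6 of the 7 members and in 22.5% of 32536 upstream windows of the same length. TATAAA was present in 4 of the 7 and in 12.3% of those windows. These matches describe letters and not bound sites.

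The gene of the genotype was read first, as a check of the genotype labels. Tnfrsf1a, which encodes TNFR1 (chromosome 6, 125349362 to 125362484, GRCm38), was at 73.1, 70.2, 61.7, 68.3 and 62.0 in wild-type replicates 1 to 5. In Tnfr1-/- replicates 1 to 6 it was at 19.9, 25.2, 19.0, 22.0, 20.2 and 28. RNA of the gene was thus still present in every Tnfr1-/- library, at a mean of 22.4 ± 3.54 (SD, n = 6) against 67.1 ± 5.04 in wild type (SD, n = 5). All 6 Tnfr1-/- libraries were below all 5 wild-type libraries, with a log2 fold change of -1.57 (SE 0.10, limma adjusted p = 8.5e-05). Estimated depth was 27.6 to 42.1 M reads per library. Markers of colon were high, with Car1, a carbonic anhydrase, at a mean of 1199. The 7 small-intestine markers summed to 17.5 to 31.2 in wild type and 14.3 to 20.6 in Tnfr1-/-, led by Mttp, a lipid transfer protein (mean 12.2), and the Paneth cell defensin gene Defa30 was listed at 0 in every library.

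No mast cell gene described here differed between genotypes beyond the spread of the mice. Of the 10 members, 6 reached the minimum for the fit across all genes, an abundance of at least 1 in at least 5 libraries: Mcpt1, Mcpt2, Mcpt4, Cma1, Cpa3 and Tpsb2. Limma called 0 of these 6 at an adjusted p under 0.05, and 0 had an unadjusted p under 0.05. Over all 15079 genes tested, 0.00663% were called and 9.37% had an unadjusted p under 0.05, 4.20% higher and 5.17% lower in Tnfr1-/-. The groups overlapped for all 10 members, against 1.49% of tested genes whose groups did not overlap. An exact permutation test over the 462 ways to split the libraries into 6 and 5, which also covered the 4 members below the minimum, gave a smallest two-sided p of 0.342. The smallest p this design allows is 0.0022.

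**Figure D1:**
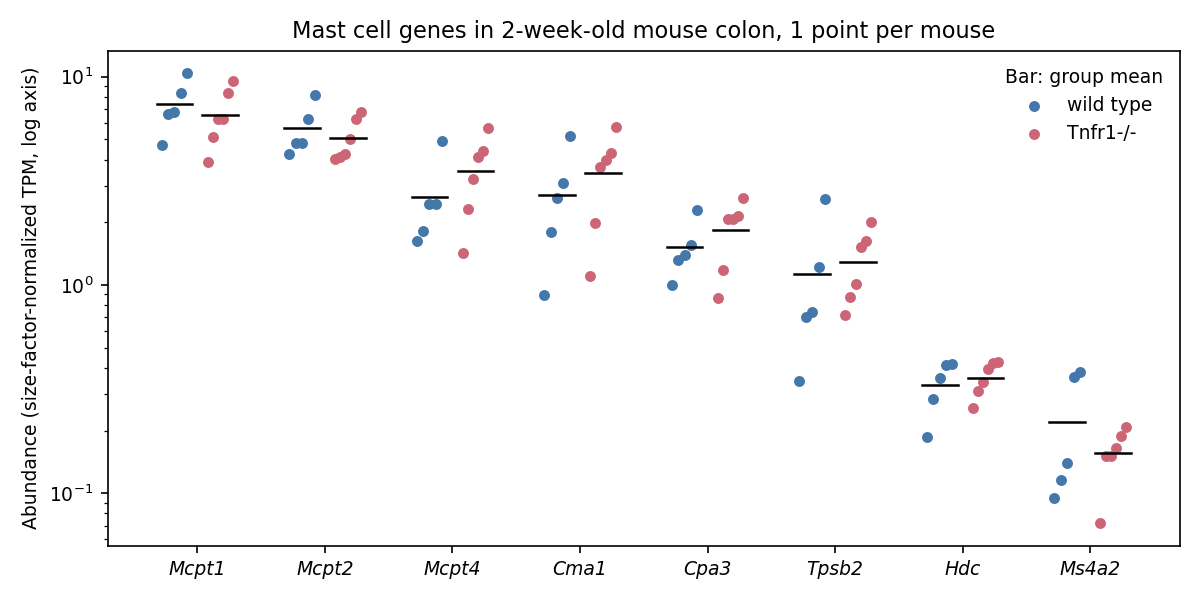
Abundance (size-factor-normalized TPM, log axis) of 8 mast cell genes, 1 point per mouse, for 5 wild-type and 6 Tnfr1-/- colons; black bars are group means. Genotypes overlap for every gene, while single genes range over up to 7.49-fold between mice (Tpsb2); Tpsab1 and Fcer1a, listed at 0 in several libraries, are not drawn.

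Mucosal chymases were the most abundant members. Mcpt1 (ENSMUSG00000022227, chromosome 14, 56017971 to 56020384) was at 6.60, 10.4, 6.79, 8.31 and 4.70 in wild-type replicates 1 to 5. In Tnfr1-/- replicates 1 to 6 it was at 6.25, 3.91, 8.33, 9.50, 5.13 and 6.24. The highest mouse was wild-type replicate 2 and the lowest was Tnfr1-/- replicate 2, and the other mice of both genotypes were interleaved. Group means were 7.36 ± 2.12 (wild type, SD, n = 5) against 6.56 ± 2.05 (Tnfr1-/-, SD, n = 6). The log2 fold change came to -0.16 (SE 0.23, limma adjusted p = 0.863), and its 95% interval ran from 0.630-fold to 1.26-fold.

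Mcpt2, the neighbouring mucosal chymase gene (ENSMUSG00000022226, chromosome 14, 56042041 to 56044642), was alike in its range. Wild-type replicates 1 to 5 were at 4.82, 8.13, 4.27, 6.28 and 4.81, and Tnfr1-/- replicates 1 to 6 at 5.03, 4.02, 6.29, 6.77, 4.12 and 4.24. Wild-type replicate 2 was again highest and Tnfr1-/- replicate 2 again lowest. Means were 5.66 ± 1.57 (wild type, SD, n = 5) against 5.08 ± 1.19 (Tnfr1-/-, SD, n = 6), a log2 fold change of -0.14 (SE 0.18, limma adjusted p = 0.853, 95% interval 0.692-fold to 1.2-fold). With libraries weighted by quality, the sign turned for both mucosal genes, to 0.12 for Mcpt1 and 0.09 for Mcpt2.

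Among the connective-tissue genes, Mcpt4 encodes the main chymotrypsin-like chymase of these cells (ENSMUSG00000061068, chromosome 14, 56059629 to 56062313). It was at 1.63, 1.81, 2.44, 4.89 and 2.45 in wild-type replicates 1 to 5 and at 3.21, 4.41, 2.31, 4.13, 1.43 and 5.66 in Tnfr1-/- replicates 1 to 6. Wild-type replicate 4 stood above the other 4 wild-type mice, among the Tnfr1-/- values, and Tnfr1-/- replicate 5 was the lowest of all. Means were 2.64 ± 1.31 (wild type, SD, n = 5) against 3.53 ± 1.53 (Tnfr1-/-, SD, n = 6). The log2 fold change came to 0.34 (SE 0.32, limma adjusted p = 0.765), with a 95% interval from 0.783-fold to 2.05-fold.

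Cma1, the gene of the other connective-tissue chymase (ENSMUSG00000022225, chromosome 14, 55941451 to 55944675), was at 0.898, 3.08, 1.80, 5.18 and 2.63 in wild-type replicates 1 to 5. In Tnfr1-/- replicates 1 to 6 it was at 3.98, 4.32, 1.98, 3.67, 1.10 and 5.73. The highest mice were the same as for Mcpt4, Tnfr1-/- replicate 6 and wild-type replicate 4, and the lowest were wild-type replicate 1 and Tnfr1-/- replicate 5. The log2 fold change came to 0.32 (SE 0.40, limma adjusted p = 0.841), with the widest 95% interval of the 6 tested members, from 0.674-fold to 2.31-fold. Its RNA was split between a pair of transcripts. ENSMUST00000022834.6 made up 82.7% of the gene over all libraries, and ENSMUST00000226280.1 carried 1.80 in wild-type replicate 3 and 4.15 in Tnfr1-/- replicate 6. Short reads from 1 end leave that split uncertain, and the gene's sum was used throughout.

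Cpa3 encodes carboxypeptidase A3, a granule exopeptidase (ENSMUSG00000001865, chromosome 3, 20215620 to 20242181). It was at 1.32, 1.55, 1.40, 2.30 and 1.00 in wild-type replicates 1 to 5 and at 2.08, 2.08, 1.18, 2.15, 0.866 and 2.60 in Tnfr1-/- replicates 1 to 6. Tnfr1-/- replicate 6 and wild-type replicate 4 were again highest, and Tnfr1-/- replicate 5 was lowest. The log2 fold change came to 0.18 (SE 0.23, limma adjusted p = 0.840, 95% interval 0.799-fold to 1.61-fold). Its short transcript ENSMUST00000191659.1 had values above 0 in wild-type replicates 1 and 2 alone, at 0.653 and 0.522. Those values rest on an estimated 2.97 and 2.70 reads. On the main transcript alone, ENSMUST00000001921.2, these mice were at 0.666 and 1.03, and wild-type replicate 1 was the lowest of all. The log2 fold change above, and the spread and correlations of Cpa3 given below, use the gene's sum and were not computed on the main transcript.

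Of the tryptases, which are trypsin-like proteases held in granules by heparin, Tpsb2 was measured at low level and Tpsab1 hardly at all. Tpsb2 (ENSMUSG00000033825, chromosome 17, 25366305 to 25369098) was at 0.347, 0.698, 0.743, 2.60 and 1.23 in wild-type replicates 1 to 5 and at 1.01, 1.52, 0.879, 1.63, 0.716 and 2.00 in Tnfr1-/- replicates 1 to 6. The wild-type mice spanned the whole range of the 11, with replicate 1 lowest and replicate 4 highest. Its log2 fold change came to 0.24 (SE 0.31, limma adjusted p = 0.847, 95% interval 0.733-fold to 1.91-fold), and it turned to -0.12 when wild-type replicates 1 and 2 were left out. The lowest library rests on an estimated 7 reads, with an exact Poisson 95% interval of 2.81 to 14.4 that covers counting error only. Tpsab1 (ENSMUSG00000024173, chromosome 17, 25343245 to 25345562) was listed at 0 in 5 of 11 libraries and reached at most 0.0823, in Tnfr1-/- replicate 2.

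The 2 IgE receptor genes were near or below the level that the depth can resolve. Fcer1a, the chain that binds IgE (ENSMUSG00000005339, chromosome 1, 173221284 to 173227214), was listed at 0 in 4 of 6 Tnfr1-/- and 3 of 5 wild-type libraries. It amounted to an estimated 4 reads over all 11 libraries. Since 3 reads of its main transcript equal an abundance of 0.132 to 0.209, depending on the library, lower levels and differences between genotypes were not detectable at this depth. Ms4a2, the chain that amplifies the receptor's signal (ENSMUSG00000024680, chromosome 19, 11615523 to 11623719), was detected in all 11, with 109 estimated reads in all and 4 to 19 per library. In wild-type replicates 1 to 5 it was at 0.14, 0.383, 0.116, 0.363 and 0.0954. The lowest, median and highest Tnfr1-/- values were 0.0719, 0.158 and 0.209, inside or just below the wild-type range. Means were 0.219 ± 0.141 (SD, n = 5) and 0.156 ± 0.0471 (SD, n = 6), with an exact permutation p of 0.374.

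Hdc, the enzyme that makes histamine from histidine, is used by mast cells, basophils and some endocrine cells (ENSMUSG00000027360, chromosome 2, 126593667 to 126619299). It was at 0.419, 0.412, 0.283, 0.357 and 0.187 in wild-type replicates 1 to 5, and the lowest, median and highest Tnfr1-/- values were 0.256, 0.368 and 0.428. Group means were 0.331 ± 0.0975 (SD, n = 5) and 0.359 ± 0.0690 (SD, n = 6), with an exact permutation p of 0.574. As sums over transcripts, Hdc differed 2.29-fold between the highest and the lowest mouse, and Ms4a2, on fewer reads, 5.33-fold. The 2 highest Ms4a2 values, of wild-type replicates 2 and 4, took 0.190 and 0.136 of their level from 1 estimated read each of the short transcript ENSMUST00000186413.1. On the main transcript alone, ENSMUST00000186978.6, the highest Ms4a2 value was 0.227 in wild-type replicate 4, 3.16-fold above the lowest. The exact permutation p was 0.602 there. Hdc on its main transcript alone, ENSMUST00000028838.4, ran from 0.0807 in Tnfr1-/- replicate 5 to 0.419 in wild-type replicate 1. That spread was the wider, so the order of the 2 genes turned.

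**Figure D2:**
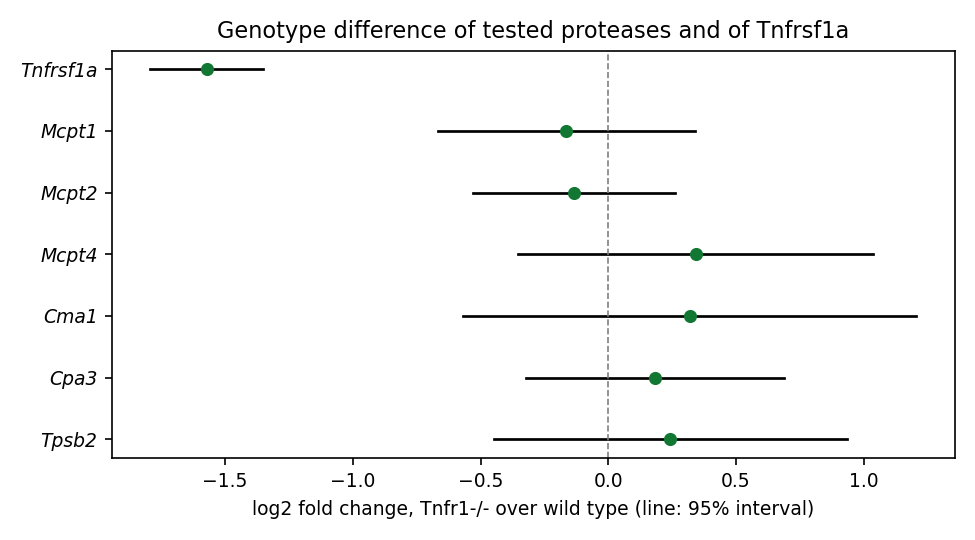
Log2 fold change of Tnfr1-/- over wild type (point) with its 95% interval (line) from limma, for Tnfrsf1a and the 6 tested proteases. The interval of Tnfrsf1a ends at -1.35, and those of all 6 proteases span 0, the narrowest being Mcpt2 (-0.53 to 0.26) and the widest Cma1 (-0.57 to 1.21).

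Single mice moved these differences. Leaving out 1 library at a time, the log2 fold change of Cma1 ran from 0.056 without wild-type replicate 1 to 0.56 without wild-type replicate 4, and that of Tpsb2 from 0.045 to 0.51 without the same mice. For Mcpt4 it was 0.56 without wild-type replicate 4 and 0.063 without wild-type replicates 1 and 2. For Mcpt1 and Mcpt2 it was -0.035 and -0.0052 without wild-type replicate 2.

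Among the members, mucosal chymases had the highest levels, and Hdc, Ms4a2, Tpsab1 and Fcer1a the lowest. Means over all 11 mice were 6.92 ± 2.02 for Mcpt1, 5.34 ± 1.34 for Mcpt2, 3.12 ± 1.44 for Mcpt4, 3.12 ± 1.61 for Cma1, 1.68 ± 0.580 for Cpa3 and 1.21 ± 0.666 for Tpsb2 (SD, n = 11). Below them came Hdc at 0.346, Ms4a2 at 0.185, Tpsab1 at 0.0252 and Fcer1a at 0.0176. Each of the 9 neighbouring pairs was compared within libraries by an exact two-sided sign-flip permutation test, with Benjamini-Hochberg adjustment. The order was taken from the means of these same 11 libraries. The p-values therefore describe how steady each step was between mice and do not test an order set beforehand. Mcpt1 exceeded Mcpt2 in 9 of 11 mice (exact adjusted p = 0.0070), and Mcpt2 exceeded Mcpt4 in 9 of 11 (exact adjusted p = 0.0088). Mcpt4 and Cma1 were not separated (higher Mcpt4 in 6 of 11, exact adjusted p = 0.65), and neither were Tpsab1 and Fcer1a (exact adjusted p = 0.56). The other 5 neighbouring pairs held their order in 9 or 10 of 11 mice, with exact adjusted p from 0.0059 to 0.0113. Even Mcpt1 was a low gene of this tissue: 32% of tested genes had a lower mean, and for Tpsb2 3.12% did.

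The proteases differed more between mice of 1 genotype than most genes did. Within genotypes the residual SD on the log2 scale was 0.74 for Cma1, 0.57 for Mcpt4, 0.56 for Tpsb2, 0.41 for Mcpt1, 0.40 for Cpa3 and 0.32 for Mcpt2. The median over 6138 tested genes with a mean between 1 and 10 was 0.24, and 69.4% (against Mcpt2) to 93.6% (against Cma1) of those genes had a smaller SD. Counting error at the median number of reads gives an SD of 0.12 for Mcpt1 and 0.28 for Tpsb2, from the estimated read numbers. Counts were estimated from abundance and ran from 81 to 248 reads per library for Mcpt1, from 34 to 161 for Mcpt4 and from 18 to 164 for Cma1.

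The mucosal genes varied together from mouse to mouse, as did the connective-tissue genes, with little correlation between the groups. Over the 11 libraries, Mcpt1 and Mcpt2 were correlated with a Pearson r of 0.87 and a Spearman rho of 0.89. The 6 pairs among Mcpt4, Cma1, Cpa3 and Tpsb2 had r of 0.69 to 0.91, with rho of 0.92 for Mcpt4 and Cma1. The 8 pairs between a mucosal and a connective-tissue gene had r of -0.06 to 0.20. With each genotype centred on its own mean these ranges were 0.86, 0.67 to 0.90, and 0.02 to 0.27. Without the 2 mice farthest from the median of the first gene, r was 0.81 for Mcpt1 and Mcpt2 and 0.83 for Mcpt4 and Cma1. For Mcpt1 and Mcpt4 it moved from -0.04 to 0.44 without Tnfr1-/- replicate 2 and wild-type replicate 2, so the low value of that pair rests on those mice. All points share their library, its scaling and its tissue makeup, and no p is given.

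**Figure D3:**
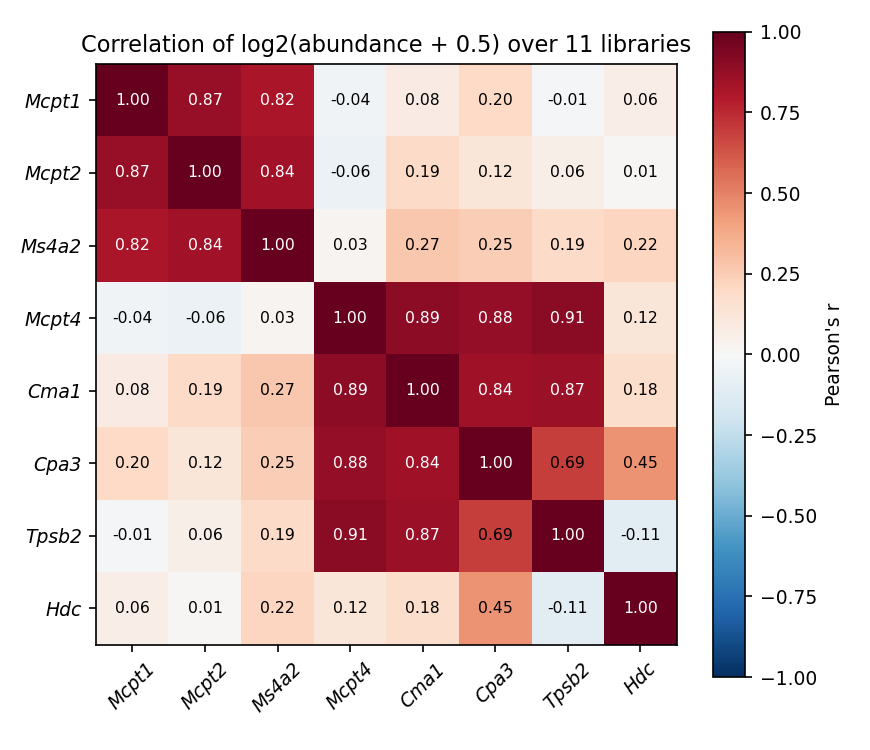
Pearson r of log2(abundance + 0.5) between 8 mast cell genes over 11 libraries, as colour and number. Mcpt1, Mcpt2 and Ms4a2 form a block (0.82 to 0.87) and Mcpt4, Cma1, Cpa3 and Tpsb2 another (0.69 to 0.91), with -0.06 to 0.27 between the blocks; on its main transcript alone Ms4a2 had 0.74 and 0.63 with Mcpt1 and Mcpt2.

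Single mice show the 2 patterns. Tnfr1-/- replicate 2 ranked 11th of 11 for Mcpt1, Mcpt2 and Ms4a2, but 3rd or 4th for Mcpt4, Cma1, Cpa3 and Tpsb2. Wild-type replicate 2 ranked 1st for Mcpt1, Mcpt2 and Ms4a2 and between 6th and 10th for the other 4. Tnfr1-/- replicate 6 ranked 1st for Mcpt4, Cma1 and Cpa3 and 8th and 9th for Mcpt1 and Mcpt2. Wild-type replicate 4 was high for both groups, ranking 4th for Mcpt1 and Mcpt2 and 1st or 2nd for the other 4. Tnfr1-/- replicate 2 was also lowest of 11 for the pan-leukocyte genes Ptprc (2.15), Cd52 (15.8), Laptm5 (10.3), Coro1a (11.0) and Cd53 (3.65). Wild-type replicate 2 was highest for Ptprc (6.03), Cd52 (49.1), Coro1a (27.6) and Cd53 (8.41), but not for Laptm5. Whether the mucosal pattern is part of a wider leukocyte pattern was not tested. Ms4a2, the beta chain of the IgE receptor, varied with the mucosal genes, at r of 0.82 with Mcpt1 and 0.84 with Mcpt2, with r of 0.03 with Mcpt4. On its main transcript alone, r was lower, 0.74 with Mcpt1 and 0.63 with Mcpt2 (rho 0.59 and 0.61), and 0.08 with Mcpt4. Wild-type replicate 2 then ranked 2nd for Ms4a2, and each library rests on 4 to 18 estimated reads. Hdc had r of at most 0.45 with any other member.

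The summed mucosal level was set against the summed connective-tissue level in each mouse. Mcpt1 + Mcpt2 ran from 7.93 to 18.5 over the 11 mice and Mcpt4 + Cma1 from 2.53 to 11.4, a 2.33-fold and a 4.50-fold range. The log2 ratio of the 2 sums, each with 0.5 added, was 1.98, 1.82, 1.29, 0.51 and 0.84 in wild-type replicates 1 to 5. In Tnfr1-/- replicates 1 to 6 it was 0.62, -0.13, 1.66, 1.01, 1.69 and -0.12. The mucosal sum was the larger in 9 of 11 mice, and the exceptions were Tnfr1-/- replicates 2 and 6. Means were 1.29 ± 0.62 (wild type, SD, n = 5) against 0.79 ± 0.81 (Tnfr1-/-, SD, n = 6), a difference of -0.50 that is smaller than either SD and for which no test is given. Without wild-type replicates 1 and 2, which had the highest ratios, the difference was -0.09.

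**Figure D4:**
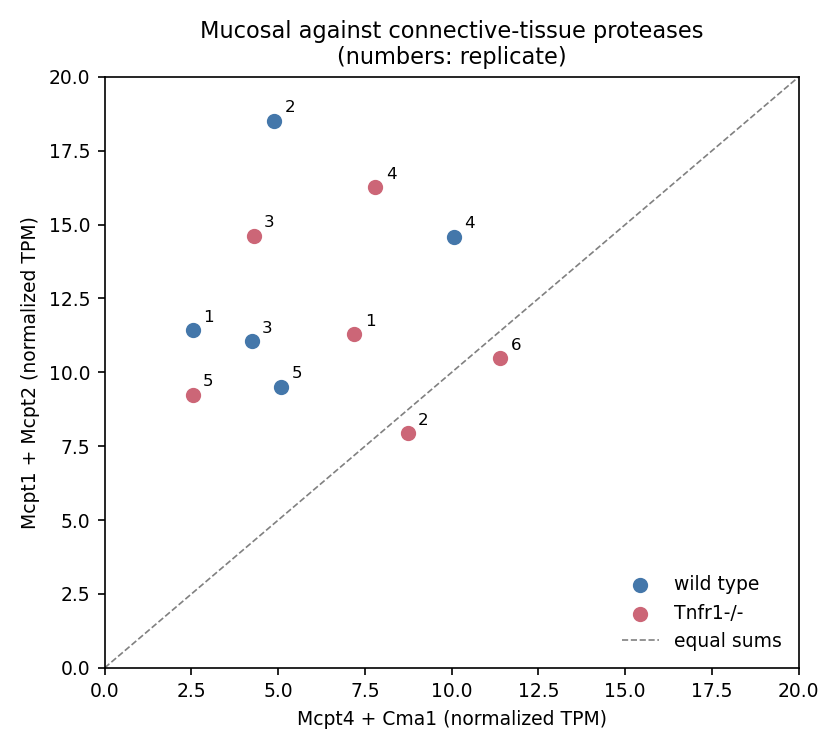
Summed abundance of the mucosal genes Mcpt1 and Mcpt2 (vertical axis, normalized TPM) against that of the connective-tissue genes Mcpt4 and Cma1 (horizontal axis, normalized TPM), 1 point per mouse with its replicate number. The dashed line marks equal sums; 9 of 11 mice lie above it, Tnfr1-/- replicates 2 and 6 lie just below it, and the genotypes are interleaved.

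Markers of other cells were read beside these patterns. The lists given first were picked for the largest r, in either direction, with Mcpt4 + Cma1 or with Mcpt1 + Mcpt2. The adipocyte list (6 of 6 measured, none at 0 in every library) summed to 143 to 210 in wild type and 131 to 539 in Tnfr1-/-. Its r with Mcpt4 + Cma1 was 0.62, and most of the sum was Fabp4 (mean 165). Basophil markers (6 of 6 measured) summed to 2.66 to 5.35 and 3.93 to 5.54 with r of 0.66, where most of the sum was Itga2b, a platelet integrin (mean 3.85), while the other 5 had means under 1. Of those, Prss34 and Gata1 had means below 0.1, and the basophil protease gene Mcpt8 was above 0 in all 11 libraries, with a mean of 0.201. For the colon markers (8 of 8 measured), led by Car1 (mean 1199), the sums were 1990 to 3290 and 1959 to 2502, with r of -0.61. The same 3 lists had r of 0.10, -0.08 and -0.08 with Mcpt1 + Mcpt2, for which the pan-leukocyte list had the highest r, 0.49. That list (5 of 5 measured) summed to 58.4 to 109 in wild type and 42.9 to 80.6 in Tnfr1-/-. Next in size of r with Mcpt4 + Cma1 were the eosinophil (0.45), smooth muscle (0.42), fibroblast (0.42) and enterochromaffin cell (-0.42) lists. The part of these cells and tissues in the patterns was not tested.

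All 4 chymase genes lie in a cluster with granzymes on chromosome 14. From Cma1 to Gzmb it spans 55941451 to 56262260 (GRCm38) and holds 15 protein-coding genes, of which the 4 members reached 1 in 10 or 11 of 11 libraries and the other 11 in none. Gzmc, a granzyme of cytotoxic lymphocytes, had the highest mean of those 11, 0.386. Mcpt8, a basophil protease, had 0.201, Cma2 0.200, Ctsg, the cathepsin G gene of neutrophils and some mast cells, 0.112, and Mcpt9 0.0764. Gzmd, Gzme, Gzmf, Gzmg and Gzmn were listed at 0 in all 11 libraries. By mouse, Mcpt4, next to Mcpt2, varied with Cma1 at the far end (r of 0.89), and Mcpt1 varied with Mcpt2 (r of 0.87). Mcpt1 and Mcpt2 lie on the plus strand, and Mcpt4 and Cma1 on the minus strand. The part of position or strand in the pattern was not tested.

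**Figure D5:**
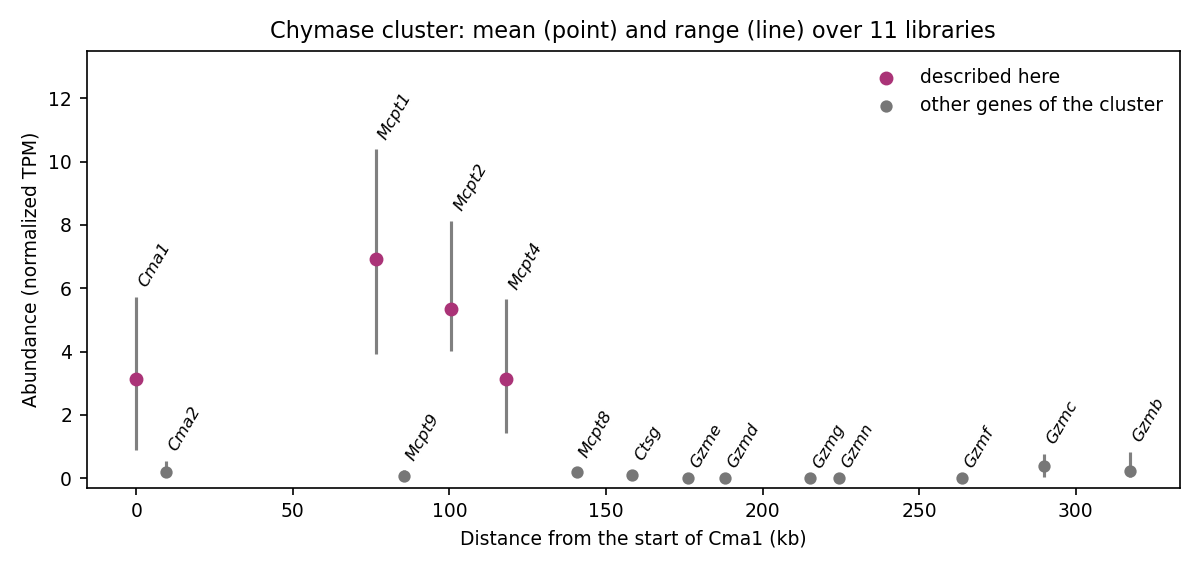
Mean abundance (point, normalized TPM) and range over 11 libraries (line) of the 15 protein-coding genes of the chymase cluster against distance from the start of Cma1 (kb). Cma1, Mcpt1, Mcpt2 and Mcpt4 stand above 3 on average, and the other 11 genes have means of at most 0.386.

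Related genes can share reads, which bears on how separate the members' values are. Of all stretches of 31 bases in each main transcript, the share found in another gene was 6.71% for Mcpt1, 5.14% for Mcpt2, 12.2% for Mcpt4, mostly with Cma2, and 10.7% for Cma1, with the pseudogene Gm48934. It was 0.856% for Tpsb2 and 0.799% for Tpsab1 and 5.0% for Ms4a2, mostly with Ms4a4b, and no such stretch was shared for Cpa3, Hdc or Fcer1a. Mcpt1 and Mcpt2 shared 34 stretches with each other. Summed as 1 gene they had a log2 fold change of -0.16 (SE 0.20, limma adjusted p = 0.846), and Tpsb2 and Tpsab1 summed had 0.25 (SE 0.32, limma adjusted p = 0.839).

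The genes most like 3 members across the 11 libraries were found by Pearson r over all tested genes, leaving out pseudogenes and genes known by a clone or predicted-gene name alone. Mcpt2 was the third-closest of all genes to Mcpt1, after Akt1s1 (0.92) and Ash2l (0.89), and Ggt1 (0.85) and Dhx38 (0.84) were at ranks 5 and 6, with a clone-named gene at rank 4. For Mcpt4 the closest were Plxdc2 (0.92), Spns2 (0.92), Rnf144b (0.91), Rmnd5b (0.91) and Tpsb2 (0.91), with Cma1 and Cpa3 at ranks 6 and 9. For Cpa3, Tbx1 (0.91) and Fam129a (0.90) were at ranks 1 and 2, and Mid1 (0.89), Mcpt4 (0.88) and Ralgapa1 (0.88) at ranks 4 to 6, with a clone-named gene at rank 3. These values describe likeness over the same 11 libraries and are given without a test.

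Signalling genes downstream of the IgE receptor were present and showed no called difference. Those named here had means of 6.14 or more, far above Fcer1a (0.0176) and Ms4a2 (0.185). RNA of the whole wall does not assign them to mast cells. Of the 16 genes of the IgE receptor list, all tested, 0 were called, 5 were higher and 11 lower in Tnfr1-/-. Their median log2 fold change was -0.09 against -0.0061 over all tested genes. Of all genes tested, 7224 were higher and 7855 lower, the base for the direction counts of this and the following lists. Fcer1g, the receptor's signalling chain, which other Fc receptors also use, had a wild-type mean of 19.2 ± 2.19 (SD, n = 5) and a Tnfr1-/- mean of 18.6 ± 3.04 (SD, n = 6, limma adjusted p = 0.928). Lyn, the kinase that starts the signal, was at 11.4 ± 1.51 and 10.4 ± 0.714. Gab2, an adaptor, was at 6.80 ± 0.688 and 6.14 ± 0.406, and Ptpn6, an inhibitory phosphatase, at 19.9 ± 1.58 and 18.4 ± 1.31. Stim1, the calcium sensor that opens store-operated channels, had the 1 unadjusted p under 0.05 of the list, at 43.2 ± 4.14 and 50.5 ± 6.94 (limma adjusted p = 0.531).

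Other genes of mast cells also gave 0 calls: of 26 genes 16 were tested, 4 higher and 12 lower. Their median was -0.08, with 0 at an unadjusted p under 0.05. RNA of the whole wall does not assign these genes to mast cells alone, and 1 of them, Cd63, ran from 442 to 522. Kit, the receptor for stem cell factor, had a wild-type mean of 19.8 ± 3.00 (SD, n = 5) and a Tnfr1-/- mean of 19.0 ± 2.40 (SD, n = 6, limma adjusted p = 0.930). Interstitial cells of Cajal, which also use Kit, had markers summing to 79.2 to 101 in wild type and 76.4 to 100 in Tnfr1-/-. Hpgds, a prostaglandin D synthase, was at 5.54 ± 1.09 and 6.48 ± 0.632, Srgn, the core protein that binds granule proteases, at 13.4 ± 1.31 and 11.8 ± 1.96, Tpsg1, a membrane-anchored tryptase, at 28.5 ± 2.14 and 25.3 ± 5.48, and Mitf, a transcription factor of mast cells, at 1.53 ± 0.250 and 2.04 ± 0.912. Mrgprb2, the receptor for basic secretagogues on connective-tissue mast cells, was among the 10 not tested, at 0.0769 ± 0.0509 and 0.137 ± 0.107. Mrgprb1, another untested gene of this list, went the other way, at 0.0935 ± 0.0292 and 0.0555 ± 0.0150. Read numbers were not estimated for these low values, and no direction is read from them.

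Genes for growth, homing and induction of mast cells had 11 of 19 tested, 5 higher and 6 lower, with 0 called and a median of -0.02. Il3ra, the alpha chain of the receptor for IL-3, had a wild-type mean of 7.28 ± 1.16 (SD, n = 5) and a Tnfr1-/- mean of 5.27 ± 1.14 (SD, n = 6), a log2 fold change of -0.44 with an unadjusted limma p of 0.0126 and an adjusted p of 0.417. Tslp, an epithelial cytokine, was at 1.55 ± 0.399 and 1.32 ± 0.153, and Madcam1, the vessel addressin bound by homing cells, at 5.21 ± 2.03 and 4.14 ± 1.27. Il33, an alarmin that acts on mast cells, was at 3.35 ± 1.10 and 4.23 ± 1.97. The cytokine genes Il3 and Il9, growth factors of mucosal mast cells, were listed at 0 in all 11 libraries.

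Histamine receptors and clearance genes had 4 of 8 tested, 2 in each direction, with 0 called and a median of 0.01. Hrh1, the H1 receptor, had a wild-type mean of 3.56 ± 0.443 (SD, n = 5) and a Tnfr1-/- mean of 4.71 ± 0.547 (SD, n = 6). Its log2 fold change came to 0.36 (SE 0.10) with an unadjusted limma p of 0.0034 and an adjusted p of 0.339, so it did not pass over all genes. Aoc1, the diamine oxidase that degrades histamine outside cells, was at 87.3 ± 11.3 and 80.3 ± 8.02, and Hnmt, which methylates it inside cells, at 3.09 ± 0.634 and 3.43 ± 0.568. Slc29a4, a monoamine transporter, was at 3.08 ± 0.730 and 2.47 ± 0.372.

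Substrates and inhibitors of these proteases had 13 of 14 tested, 6 higher and 7 lower, with 0 called, 0 at an unadjusted p under 0.05 and a median of -0.04. Edn1, whose peptide endothelin is cut by mast cell proteases, had a wild-type mean of 12 ± 1.87 (SD, n = 5) and a Tnfr1-/- mean of 15.6 ± 3.72 (SD, n = 6, limma adjusted p = 0.540). Ocln, the tight junction protein occludin, was at 44.9 ± 3.18 and 48.5 ± 3.46. Timp1, an inhibitor of matrix proteases, was at 7.5 ± 0.621 and 6.87 ± 0.483, and Serpinb1a, an inhibitor of chymotrypsin-like and elastase-like proteases, at 333 ± 77.2 and 289 ± 26.3.

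The authors' own deposited test, made per transcript, gave a p for 8 of the members' 22 transcripts. In the authors' deposited table those p-values ran from 0.159 for Cpa3 to 0.841 for Ms4a2, and the lowest q was 1.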

How the data were processed

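RNA was measured in the full-thickness colon of 11 mice, 6 Tnfr1-/- and 5 wild type, by single-end stranded mRNA sequencing (75 bases), per the labels. Tools named in the submitters' processing notes are CASAVA, kallisto and sleuth, with the build mm10 and no versions. The authors deposited a normalized signal per transcript and library, TPM divided by a size factor. The deposited p-value and q-value columns are the authors' test of each transcript, per the file headers. The deposited mean is a natural log (ln) of estimated counts after normalization, as the values fit and per the file headers.

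The table had 113991 lines for 113193 transcripts. Repeated lines (584 transcripts, same values) were dropped, and transcripts were summed per gene. The 97 transcripts without a gene (0.031% of abundance) were left out. Genotypes were compared by limma 3.58.1 (R 4.3.3, trend, two-sided) on log2(value + 0.5), over 15079 genes with a value of at least 1 in at least 5 libraries, with Benjamini-Hochberg adjustment and a call at an adjusted p under 0.05. Fold changes on that scale understate changes of low genes. Each member also had an exact permutation test.

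Read numbers are estimates. The factor that brought most low values within 0.02 of a whole read was used, with 199 bases taken off transcript length. Only 51.9% to 54.2% of low values were whole then (at most 2.28% at a typical factor), so no count test was run. Python 3.11.15, numpy 2.4.6, pandas 2.3.3, scipy 1.17.1, Biopython 1.88 and matplotlib 3.10.9 were used. Positions are from GENCODE M21 (GRCm38).

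The members, gene lists and tests were chosen with earlier results of these data known. Named were Tnfrsf1a, the 10 members, up to 4 tested genes with the smallest p of each of 5 lists, Kit, Fcer1g, and the 5 genes closest to Mcpt1, Mcpt4 and Cpa3 by correlation among those with a symbol (clone and predicted-gene names, pseudogenes and Y-linked genes left out). Other genes named, such as marker genes, genes of the chymase cluster, Mrgprb1, Mrgprb2, Il3 and Il9, were named after their values were seen. Alternatives were quantile normalization, rescaled columns, other filters and pseudocounts, library quality weights, a block for the replicate number, summed relatives, and left-out libraries. Mice are separate animals, and shared litters are not given in the sources used here.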

Additional observations from a re-analysis of the deposited data

Results flagged for a closer look

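In 68 sets of values (1 gene, or the log2 protease ratio, in 1 genotype), 7 held a mouse well apart from the others. For normally distributed values, chance gives about 3.4 such sets. Mcpt4 was at 4.89 in wild-type replicate 4, above the other 4 wild-type mice, the nearest at 2.45; the same mouse was also the highest wild type for Cma1, Cpa3 and Tpsb2. Kit was at 14.3 in Tnfr1-/- replicate 2, below the other 5, the nearest at 19.0. That mouse also had the lowest Mcpt1, Mcpt2 and Ms4a2 of all 11. The reverse held for wild-type replicate 2, which had the highest Mcpt1, Mcpt2 and Ms4a2 of all 11 but the lowest wild-type Kit, 15.7.

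Gab2 was at 6.89 in Tnfr1-/- replicate 5 (nearest 6.15) and Ptpn6 at 22.7 in wild-type replicate 2 (nearest 19.7). Aoc1 was at 96.3 in Tnfr1-/- replicate 5 (nearest 79.5), Hnmt at 4.56 in Tnfr1-/- replicate 6 (nearest 3.37) and Ocln at 50.4 in wild-type replicate 2 (nearest 44.4). These 5 were each the highest of their genotype.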

How the results depend on the processing

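Of 117 values of members under 21 other settings, 114 kept their direction and side of the threshold and 3 changed sign: Mcpt1 (0.12) and Mcpt2 (0.09) with quality weights, and Tpsb2 (-0.12) without wild-type replicates 1 and 2, which stood apart in an earlier analysis of these data. Sizes moved more: leaving out single libraries gave -0.30 to -0.035 for Mcpt1, -0.22 to -0.0052 for Mcpt2, 0.20 to 0.56 for Mcpt4, 0.056 to 0.56 for Cma1, 0.085 to 0.33 for Cpa3 and 0.045 to 0.51 for Tpsb2, and without wild-type replicates 1 and 2 Mcpt4 was at 0.063 and Cma1 at 0.070. The lowest limma adjusted p of a member was 0.467, and 0 members were called under any setting. At a filter of 10 no member was left to test. Of 451 values of list genes 445 kept their direction and side, with a lowest limma adjusted p of 0.148. Without wild-type replicates 1 and 2, Lyn turned to 0.0029, Il33 to -0.070 and Serpinb1a to 0.055, and the difference of Tpsab1 to -0.011.

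When each library was left out in turn, signs changed for Fcer1g (-0.13 to 0.040), Kit (-0.13 to 0.026), Tpsab1 (-0.0020 to 0.052), Fcer1a (-0.025 to 0.022) and Hdc (-0.016 to 0.089). The ratio difference ran from -0.69 to -0.32, and Tnfrsf1a from -1.64 to -1.53. The ratio difference was -0.48 with Tpsb2, Tpsab1 and Cpa3 added and -0.53 with 0.1 in place of 0.5. Over all genes the count called was 1, with 3 under quality weights and 1 to 2 without single libraries (2 without wild-type replicate 1). The count at an unadjusted p under 0.05 was 1413, with 931 of 8872 genes at a filter of 10, 2325 under quality weights, 2455 without wild-type replicates 1 and 2, and 1077 to 1761 without single libraries.

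Replicate numbers gave no clear pairing of the mice: profiles of same-numbered mice had r of -0.22 to 0.38, 3 of 5 pairs over 0.1. In 0 of the 5 pairs was each mouse the other's best match. Whether same-numbered mice shared a litter or batch is not given and was not tested. With the replicate number as a block, 0 members were called, Tnfrsf1a was at -1.64 and 1545 genes had an unadjusted p under 0.05. On its main transcript alone, an alternative chosen after seeing the data, Ms4a2 differed by -0.032 (exact permutation p = 0.602). Depth limits Fcer1a and Tpsab1 most, with 4 and 5 estimated reads in all, the latter without 1 transcript whose length was not matched.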
